A study of Mus musculus with 2 samples.

Results

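Sparse autosomal domains are stretches of the mouse autosomes in which few nucleosomes were called in embryonic stem (ES) cells. Each autosome was divided into windows of 100 kb counted from position 1, and windows were selected on this count alone: a window was taken as sparse when it held 1 to 28 centres of called nucleosomes in the 2 libraries together. Of 24015 autosomal windows with a call, 3701 (15.4%) met this rule. They held 33780 calls of the ethanol library, which is 2.60% of its list, and 40616 calls of the tamoxifen library, 2.85% of its list. They were compared with 4165 autosomal windows that held 100 to 150 calls, called intermediate windows here, and in a few places with 1505 windows of the X chromosome that held 1 to 28 calls. Because the rule counts calls, low density and long distances between calls follow from it and are given as description only.

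Nucleosomes are the units of DNA wrapped around histones, and micrococcal nuclease (MNase) cuts the linker DNA between them, so DNA of the mononucleosome band marks where they sat. Mammalian chromosomes alternate between gene-rich, open domains and gene-poor, compact ones that can extend over megabases, and compact chromatin is often replicated late and held at the nuclear periphery. The usual centre-to-centre distance of neighbouring nucleosomes, the repeat length, is known to differ between cell types and between kinds of chromatin. The ATPase Brg1 (gene Smarca4) drives esBAF, a SWI/SNF remodeler that uses ATP to move and evict nucleosomes in ES cells.

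The 2 groups were ES cells of genotype Brg1fl/fl that carry Actin-CreER, a Cre recombinase under an actin promoter that tamoxifen activates. They were grown in serum and LIF on gelatin and given 0.8 µM tamoxifen or the same volume of ethanol for 24 hours, followed by 48 hours without either. Both groups carry the floxed alleles and the Cre, so ethanol is the vehicle control, and the loss of Brg1 itself was not measured here. Each group had 1 library from a 12 U MNase digest, so there was no replicate check, no test and no p-value. The ethanol library held 1300009 calls and the tamoxifen library 1424844. The number of reads behind them is unknown. Intervals are at 95%, treat calls or pairs as independent counts and cover counting error only. Coordinates are on mm9.

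Sparse windows were spread unevenly over the autosomes. On chromosome 14 they made up 23.4% of the windows with calls (286 of 1222), on chromosome 16 22.9% and on chromosome 1 21.6%, where the largest number lay (415 of 1920). The lowest shares were on chromosome 12, with 5 of 1180 windows (0.424%), and chromosome 8, with 22 of 1253 (1.76%). Those chromosomes carry the most calls per window of all autosomes, with medians of 151.5 and 174 calls against 58 to 134 on the other 17. The lower end of the distribution was shifted there too. The 10th percentile of calls per window was 44 on chromosome 8 and 46 on chromosome 12, and 16 to 34 on the other 17 autosomes.

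Sparse windows were least frequent at the distal ends. When the span with calls on each autosome was divided into 10 equal parts, 6.78% of the windows in the most distal part were sparse (163 of 2403) and 9.76% in the part before it. The other parts held between 13.0 and 20.5%, with the highest share just proximal of the middle. The most distal part lay below its own chromosome's share on 16 of 19 autosomes. The exceptions were chromosomes 13, 17 and 18, where 17.1, 29.3 and 41.4% of the windows in that part were sparse.

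**Figure D1:**
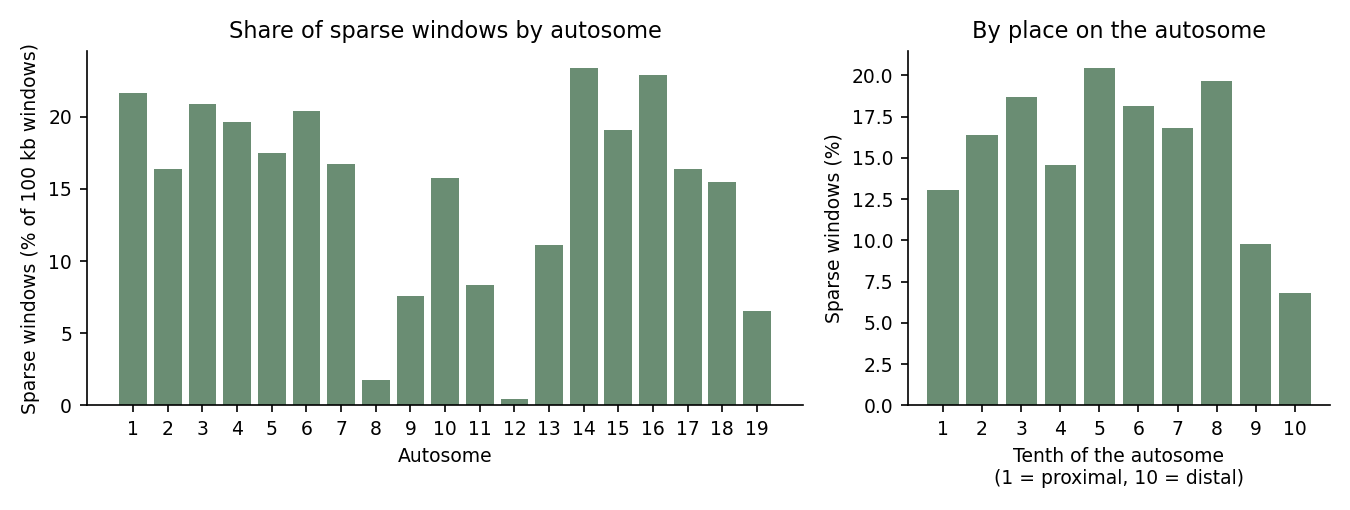
Share of 100 kb windows with calls that were sparse (1 to 28 calls in both libraries together), on the left for each of the 19 autosomes and on the right for 10 equal parts of the span with calls, from proximal to distal, over all autosomes. Chromosomes 8 and 12 stand lowest at 1.76 and 0.424%, and the most distal part has the lowest share at 6.78%.

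Within sparse windows the number of calls had a median of 21, with quartiles of 16 and 25. The ethanol library had 0 to 18 calls per sparse window with a median of 9, and the tamoxifen library 0 to 22 with a median of 11. Intermediate windows had medians of 58 and 65. The rule left no step at its limit, since 248 windows held 28 calls and 217 held 29. At the other extreme, 83 windows held 1 to 7 calls, of which 33 lay on chromosome 7 and 11 each on chromosomes 4 and 14. Chromosome 7 also had 71 of the 146 windows with no call that lay between called ones, and whether calls beside such stretches are complete in these lists was not tested. No ethanol call was listed in 9 sparse windows and no tamoxifen call in 3.

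Sparse windows lay side by side in domains of up to several megabases. Adjoining sparse windows formed 1081 runs, of which 500 were single windows. Runs of 10 or more windows numbered 81, on 16 autosomes, and held 1352 sparse windows (36.5%). There were 18 runs of 20 or more. The windows of longer runs were also the emptier ones, with a median of 24 calls in single windows, 21 in runs of 5 to 9, 19 in runs of 10 to 19 and 17 in runs of 20 to 49.

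The longest run covered 4.9 Mb on chromosome 14, from 92100001 to 97000000, with 327 ethanol and 401 tamoxifen calls in 49 windows. Its windows held 3 to 28 calls, and its longest stretch without a centre in either list was 83975 bp. Another 2 of the 8 longest runs lay on the same chromosome, from 82200001 to 86700000 (341 and 396 calls) and from 88300001 to 92000000 (253 and 313 calls). Together these 3 runs and the gaps between them spanned 14.8 Mb, in which 132 of 148 windows were sparse, with 1320 ethanol and 1572 tamoxifen calls. The 16 windows that interrupted them held 29 to 86 calls, and the highest count was at 87500001 to 87600000, with 45 ethanol and 41 tamoxifen calls.

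The second longest run lay on chromosome 15, from 16100001 to 20700000, with 380 ethanol and 434 tamoxifen calls in 46 windows. Chromosome 1 had runs of 36 windows (26100001 to 29700000, 260 and 310 calls) and 33 windows (110300001 to 113600000, 241 and 285 calls). The latter held the longest call-free stretch of these 8 runs, 86380 bp from 111251436 to 111337816. The last 2 of the 8 lay on chromosome 7, from 59800001 to 62600000 (222 and 278 calls in 28 windows), and on chromosome 3, from 47100001 to 49500000 (174 and 209 calls in 24 windows). All 8 had more tamoxifen than ethanol calls. The scaled log2 ratio of tamoxifen over ethanol lay between 0.06 and 0.19 in them, and each of the 8 intervals included 0.

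The length of a run depends on where windows begin, because a single window over 28 calls ends it. The window from 92000001 to 92100000 on chromosome 14, with 12 ethanol and 18 tamoxifen calls, was all that separated the runs of 37 and 49 windows. With windows shifted by 50 kb the longest run had 87 windows, from 88250001 to 96950000 on chromosome 14, with 600 ethanol and 737 tamoxifen calls. It was followed by 58 windows on chromosome 2, from 95350001 to 101150000. The number of sparse windows was then 3691 and the number of runs 1078.

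Around long runs the density of calls stayed low. The window just outside a run of 10 or more had a median of 33 calls over 160 sides, where at least 29 are required by the rule. The next window out had a median of 23, and 67.9% of these windows were sparse again. At 1000 kb from the edge the median was 33 calls with quartiles of 21 and 55, and 43.2% of the windows were sparse. Outside single sparse windows the medians were 36 calls at 100 kb and 45 at 1000 kb, where 29.6% were sparse. All of these medians lie under the 89 calls of the median autosomal window.

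**Figure D2:**
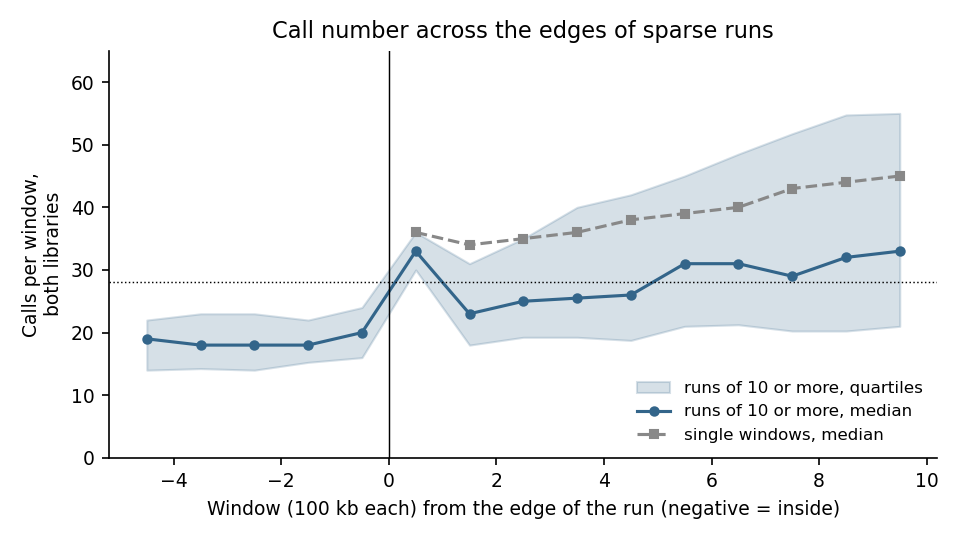
Median number of calls per 100 kb window, both libraries together, by window from the edge of runs of 10 or more sparse windows (points and line, with quartiles shaded; negative is inside) and outside single sparse windows (squares). The dotted line is the limit of 28 calls, which windows inside must not exceed and the adjoining window outside must exceed. Farther out the median stays between 23 and 33 calls around long runs.

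Nucleosomes called in sparse windows had lower scores than those of intermediate windows. The authors' score, whose definition is not given in the sources used here, was read only within a list. In the ethanol list the median was 73.4 in sparse windows (interval 72.9 to 74.1), with quartiles of 59.8 and 98.8, and 83.2 in intermediate windows, with quartiles of 63.4 and 121.7. In the tamoxifen list the medians were 74.1 (interval 73.4 to 74.4) and 83.2. X chromosome windows with 1 to 28 calls had a still lower median of 70.9 in both lists. Of the sparse ethanol calls, 28.9% belonged to the lowest of 5 equal score classes of the list and 9.39% to the highest, against 21% and 17.1% in intermediate windows. The corresponding shares in the tamoxifen list were 28.3 and 9.61%. The median was nearly the same along the run lengths, at 74.3 with ethanol in single windows and 72.4 in runs of 20 to 49. Score and number of calls come from the same reads, so they are not independent. The mean width of a call was 114.2 bp in sparse and 113.4 bp in intermediate windows of the ethanol list, and the tamoxifen list gave 114.1 and 113.4 bp.

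A few sparse calls had the highest score of the lists, 3250. There were 22 in each list, which is 6.51 per 10000 sparse calls with ethanol and 5.42 with tamoxifen, against 1.68 and 1.72 in intermediate windows. Over all autosomal calls the rates were 5.00 and 4.88 per 10000, close to those of sparse windows. Of the 22 ethanol calls, 21 had the same centre as a tamoxifen call, and 18 lay more than 2000 bp from any other ethanol call. In chromosome order the first 5 in both lists lay on chromosome 1 at 104524801 to 104524881, on chromosome 2 at 41751681 to 41751841, 57481931 to 57482091 and 98503021 to 98503101, and on chromosome 3 at 5860511 to 5860601. Each of these had the same start and end in both lists. The score of 3250 was held by 757 ethanol and 848 tamoxifen calls in all. Equal scores therefore follow from picking calls at this value.

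Even in sparse windows, nucleosomes lay next to each other more often than an even spread of the calls would give. Successive ethanol calls of a sparse window had a median distance of 6290 bp, and 63.5% of the calls lay over 2000 bp from any other of the list. Tamoxifen calls had 5495 bp and 59.8%. Nevertheless 7.50% of successive ethanol calls (interval 7.21 to 7.81%) and 7.34% of successive tamoxifen calls (7.08 to 7.61%) were neighbours 140 to 400 bp apart, against 20.1 and 21.5% in intermediate windows. Pairs of calls within a window were also counted by distance. The pair ratio divides their number by that expected if each window's own calls were spread evenly over it.

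The pair ratio at 140 to 400 bp was higher in sparse than in intermediate windows. For distances of 140 to 400 bp the ethanol library had 2316 pairs, 2.85 times the even expectation (interval 2.73 to 2.97). The tamoxifen library had 2773 pairs, 2.37 times (2.28 to 2.46). In intermediate windows the ratios were 1.35 (1.34 to 1.36) and 1.31 (1.29 to 1.32). The 2 classes were chosen by their number of calls, and the number of expected pairs grows faster than the number of calls. The ratio can therefore be higher in emptier windows at the same number of close neighbours per call. With ethanol, 33780 sparse calls gave 2316 pairs with 813 expected. The 244713 intermediate calls gave 51147 pairs with 37801 expected. These ratios thus cannot tell whether calls kept closer company in sparse windows, and the part of call number was not tested. At 401 to 1000 bp the sparse ratios were 1.36 with ethanol and 1.32 with tamoxifen, and at 1001 to 2000 bp they were 1.06 and 1.05. Beyond 2000 bp they lay between 0.976 and 1.03. A small excess was left at 5001 to 10000 bp, 1.03 (1.01 to 1.05) with ethanol and 1.02 (1.00 to 1.03) with tamoxifen, and intermediate windows had 1.03 there in both libraries. In intermediate windows the ratio was still 1.06 at 2001 to 5000 bp in both libraries.

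The pair ratio was highest in the longest runs. Over 140 to 1000 bp the pair ratio with ethanol was 1.65 in single sparse windows, 1.71 in runs of 2 to 4, 1.79 in runs of 5 to 9, 1.93 in runs of 10 to 19 and 2.21 in runs of 20 to 49. With tamoxifen it was 1.56 in single windows, 1.60 in runs of 2 to 4 and 1.53 in runs of 5 to 9. Runs of 10 to 19 then had 1.73 and runs of 20 to 49 had 1.98, so the rise was not steady. Calls per window move the other way along these classes, and their part in the order was not tested. Over all sparse windows the ratio was 1.81 in the ethanol library (1.76 to 1.86) and 1.64 in the tamoxifen library (1.60 to 1.68), thus higher in the ethanol library, which had fewer calls. On the X chromosome the same ratio was 4.77 (4.51 to 5.05) with ethanol and 3.87 (3.66 to 4.10) with tamoxifen, at a median of 7 calls per window.

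Larger concentrations were rare. Of 37010 bins of 10 kb in sparse windows, 28173 held a call and 439 held 8 or more from both lists together, with 15 as the most. Bins with no ethanol call made up 42.1%, and 40.2% would be empty if each window's calls were spread evenly. With tamoxifen these shares were 35.2 and 33.5%.

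**Figure D3:**
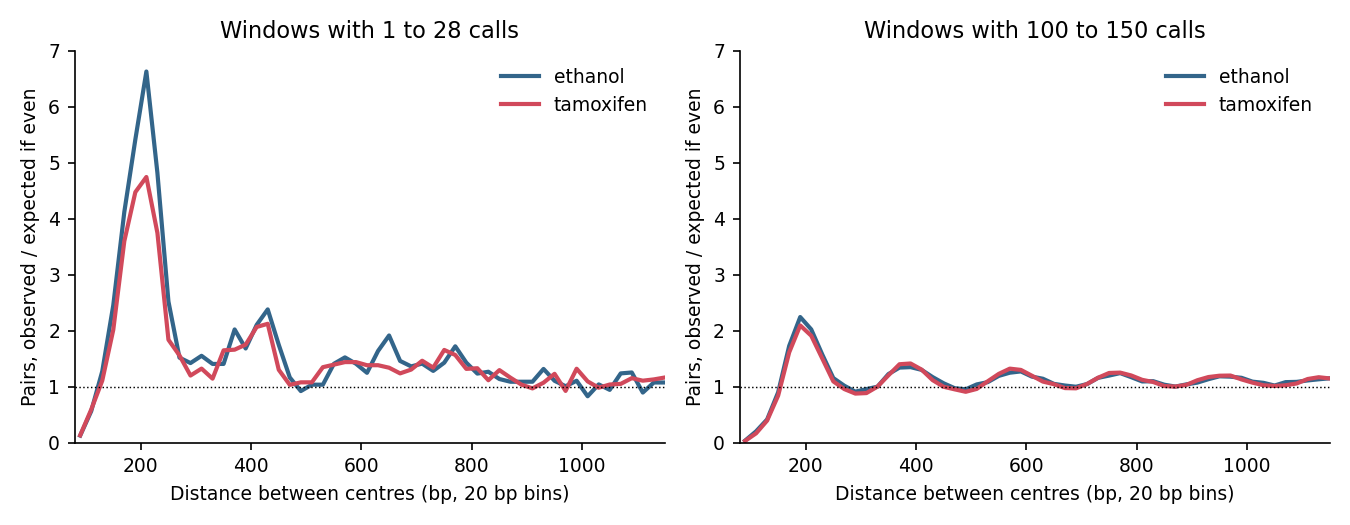
Pairs of calls of 1 library within a 100 kb window, by distance between centres in bins of 20 bp, as observed number over the number expected if each window's calls were spread evenly, for sparse windows on the left and windows with 100 to 150 calls on the right. Sparse windows have the higher peak near 200 bp, 6.63 with ethanol and 4.75 with tamoxifen in the bin from 200 bp, and their next peak lies at a longer distance than that of intermediate windows.

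A regular pattern of distances was present in sparse windows. The periodicity contrast, which divides the pairs at 350 to 410 bp by those at 260 to 320 bp, was 1.24 with ethanol (377 and 305 pairs, interval 1.06 to 1.44) and 1.34 with tamoxifen (525 and 393 pairs, 1.17 to 1.52). The tamoxifen contrast was 1.08 times the ethanol contrast, with an interval of 0.885 to 1.32, so a difference between the libraries was not detectable in sparse windows at these pair numbers. With calls below their list's median score left out, the ratio lay on the other side of 1, at 0.771 (0.483 to 1.23). In intermediate windows the contrast was 1.38 (1.34 to 1.42) with ethanol and 1.504 (1.47 to 1.54) with tamoxifen. The limits of 350 to 410 bp enclose the second peak of distances in intermediate windows, 385 bp after smoothing over 45 bp. They miss that of sparse windows, 415 bp. The contrast therefore cannot tell whether sparse windows were less regular. With smoothing over 15 bp the sparse peak stood at 425 bp with ethanol and 410 bp with tamoxifen, which may also affect the ratio between libraries.

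The second peak of the distances lay farther out in sparse windows. After smoothing over 45 bp the second peak of the distances stood at 415 bp in both libraries, against 385 bp in intermediate windows. The first peak stood at 200 bp against 195 bp. With smoothing over 15 bp the sparse peaks differed between the libraries, standing at 215 and 425 bp in the ethanol library but at 200 and 410 bp in the tamoxifen library. Intermediate windows then had the first peak at 190 bp in both and the second at 380 and 375 bp. Pairs 400 to 440 bp apart were then set against pairs 345 to 385 bp apart. These limits were set with the distances already in view, so the ratios describe the peaks and are no test of them. Sparse windows had 301 longer and 252 shorter pairs with ethanol, a ratio of 1.19 (interval 1.01 to 1.41), and 402 and 356 with tamoxifen, a ratio of 1.13 (0.979 to 1.30). In intermediate windows the shorter pairs were more numerous, with ratios of 0.927 (0.899 to 0.956) and 0.884 (0.860 to 0.908).

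Windows just above the limit, which the rule left out, had a like pattern in the ethanol library. With 29 to 49 calls the second peak lay at 420 bp in the ethanol and 410 bp in the tamoxifen library, and the ratio of longer to shorter pairs was 1.28 (1.17 to 1.40) and 1.05 (0.967 to 1.14). With 50 to 99 calls the peak was at 380 bp in both libraries and the ratios were 0.988 and 0.913. On the X chromosome the peaks were at 425 and 420 bp and the ratios 2.82 (2.01 to 3.97) and 2.11 (1.53 to 2.92), from 127 and 45 pairs with ethanol and 114 and 54 with tamoxifen. In sparse autosomal windows a further call lay between the 2 calls of 27.2% of the longer and 13.5% of the shorter ethanol pairs. With tamoxifen these shares were 16.9 and 11.2%. Whether the other pairs were 2 repeats apart was not tested. Longer ethanol pairs came from 272 windows. Among pairs whose calls both reached the median score of their list, the ratio was 1.18 with ethanol (60 and 51 pairs, interval 0.810 to 1.71) and 1.13 with tamoxifen (70 and 62 pairs), which does not separate it from 1. Pairs share calls, so these intervals are too narrow.

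The few nucleosomes of sparse windows were found at the same positions in both libraries far more often than displaced calls. Of the sparse ethanol calls, 36.2% lay within 20 bp of a tamoxifen call (Wilson interval 35.7 to 36.7%), whereas 0.438 to 0.577% did so after displacement by 1000 to 10000 bp in 10 steps. In the other direction, 30.1% of sparse tamoxifen calls (29.6 to 30.5%) were so placed, and 0.342 to 0.478% once displaced. In intermediate windows 43.6% of ethanol and 39.1% of tamoxifen calls were shared, and 3.00 to 3.32% and 2.69 to 2.96% once displaced. Sharing in sparse windows was thus lower as a share but 69.4 times the mean displaced level with ethanol, against 14.0 times in intermediate windows. The displaced level is low in sparse windows because there are few calls to meet.

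Sharing was lower in sparse windows in the lowest, second and middle score classes of both lists. In the lowest of 5 equal score classes of the whole ethanol list, 21.9% (21.1 to 22.7%) of sparse and 27.9% (27.5 to 28.3%) of intermediate calls were shared. The next class had 28.5 against 33.9% and the middle class 38.3 against 42.6%. In the class just under the highest the shares were 51.2 and 51.8%, with overlapping intervals. In the highest class sparse calls were shared more often, 70.6% (69.0 to 72.2%) against 66.5% (66.0 to 66.9%). Sparse tamoxifen calls were shared less often in 4 of the 5 classes, with 16.0 against 22.2% in the lowest, 31.0 against 36.5% in the middle one and 43 against 47.8% in the class just under the highest. In the highest class 68.3% (66.8 to 69.7%) of sparse and 65.5% (65.1 to 65.9%) of intermediate tamoxifen calls were shared. Had the sparse ethanol calls had the scores of intermediate windows, 40.9% would have been shared at their own rates by score, and 34.9% of the tamoxifen calls.

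**Figure D4:**
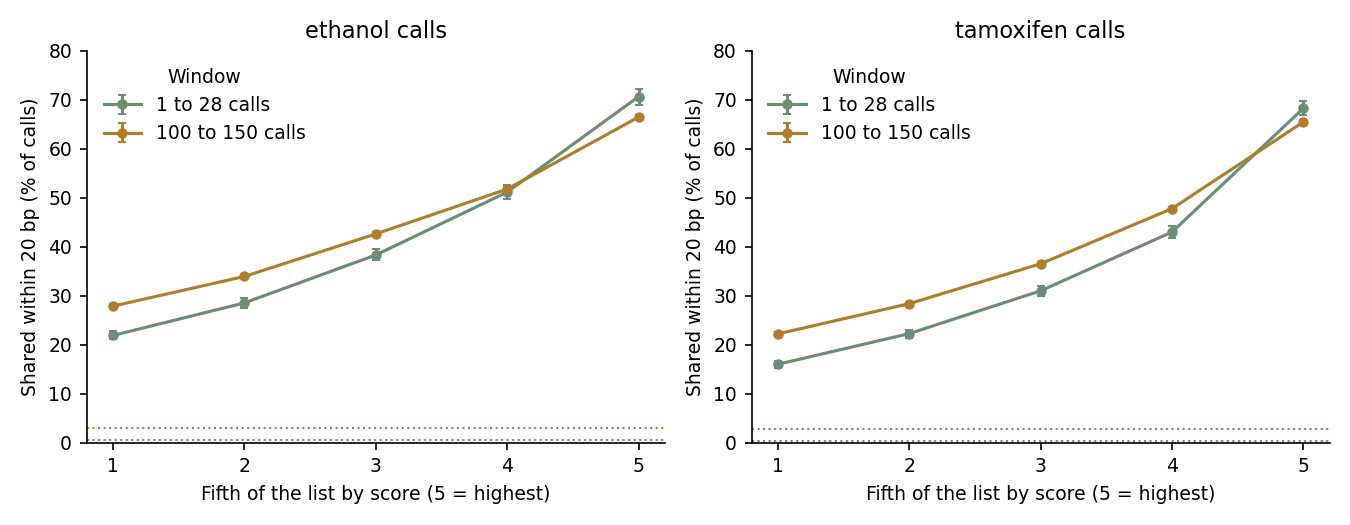
Share of calls with a call of the other library within 20 bp, by 5 equal score classes of the own list, for ethanol calls on the left and tamoxifen calls on the right, in sparse windows and in windows with 100 to 150 calls; bars are 95% Wilson intervals and dotted lines the mean after 10 displacements. Sparse calls lie below in the lowest class and above in the highest.

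Nucleosomes of sparse windows with another call of their list within 400 bp were shared more often than those farther from any other. Of 5190 ethanol calls with no other ethanol call within 10000 bp, 36.0% (34.7 to 37.3%) were shared, and their median score was 72.4. Of 4508 ethanol calls with another within 400 bp, 39.8% (38.4 to 41.2%) were shared, at a median score of 76.7. Among tamoxifen calls the shares were 28.9% (27.6 to 30.3%) and 35.0% (33.7 to 36.3%). Beyond 400 bp the distance made little difference. Calls over 400 to 2000 bp and over 2000 to 10000 bp from another had 35.5 and 35.6% with ethanol and 29.5 and 29.3% with tamoxifen. Intermediate windows had a smaller step of this kind, with 44.5% of ethanol calls shared within 400 bp and 43.1% over 400 to 2000 bp. The tamoxifen shares there were 40.4 and 38.3%. Even so, isolated calls lay far above the displaced level. Sharing varied little with run length, from 35.9% in single windows to 36.3% in runs of 2 to 4 and 36.2% in runs of 20 to 49 with ethanol.

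Calls without a close partner had lower scores than those with one. In sparse windows 16872 ethanol calls (49.9%) and 23696 tamoxifen calls (58.3%) had no call of the other list within 100 bp. Since partners come in pairs, the larger number on the tamoxifen side restates its larger total. The sparse calls without such a partner had median scores of 65.3 with ethanol and 67.0 with tamoxifen, and those with a partner 86.0 and 88.9. The sparse window with the most shared calls, chromosome 16 from 41000001 to 41100000, had 10 of its 15 ethanol calls within 20 bp of one of its 13 tamoxifen calls. Next came chromosome 1 from 44600001 to 44700000, with 9 of 13 ethanol calls and 14 tamoxifen calls, and chromosome 4 from 92700001 to 92800000, with 9 of 13 and 12.

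The tamoxifen library had more calls than the ethanol library in sparse windows, beyond the difference in library totals. The 33780 and 40616 calls give 1.20 times as many with tamoxifen (exact interval 1.19 to 1.22), and intermediate windows, with 244713 and 272725 calls, give 1.11 times (1.11 to 1.12). Scaled to library totals, the log2 ratio was 0.13 (0.11 to 0.15) in sparse and 0.02 (0.02 to 0.03) in intermediate windows. The difference between these log2 ratios was 0.11 (0.09 to 0.13). Windows just above the limit were much like sparse ones, with 0.11 (0.09 to 0.12) at 29 to 49 calls, and those with 50 to 99 calls had 0.08 (0.07 to 0.09). The windows were chosen with this gain known, so it is given as a description. Within the sparse windows it was larger where calls were fewest. Windows with 1 to 7 calls had 164 ethanol and 239 tamoxifen calls, a scaled log2 ratio of 0.41 (0.12 to 0.71). Those with 8 to 14 calls had 0.23 (0.16 to 0.30) and those with 22 to 28 calls 0.12 (0.09 to 0.14). Fewer calls did not go with a larger gain on the X chromosome. Its windows with 1 to 28 calls, at a median of 7, had 5804 ethanol and 6607 tamoxifen calls. Their scaled log2 ratio was 0.055 (0.004 to 0.106), below that of sparse autosomal windows.

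The change between the libraries did not follow the length of the run. Single sparse windows had 5246 ethanol and 6321 tamoxifen calls, a scaled log2 ratio of 0.14 (0.08 to 0.19). Runs of 2 to 4 windows had 0.12 (0.09 to 0.16), runs of 5 to 9 had 0.12 (0.08 to 0.16), and runs of 10 to 19 had 0.15 (0.11 to 0.20). Runs of 20 to 49 windows, with 3960 and 4774 calls, had 0.14 (0.08 to 0.20). Runs of 10 or more differed from single windows by 0.01 on the log2 scale, with an interval of -0.05 to 0.08. Among windows with 15 to 21 calls alone, a class chosen after seeing the data that narrows the gap in density, this difference was -0.07 (-0.20 to 0.06). With 22 to 28 calls single windows had 0.12, runs of 10 to 19 had 0.14 and runs of 20 to 49 had 0.10. With 8 to 14 calls these values were 0.19, 0.33 and 0.17, the first from only 22 single windows.

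**Figure D5:**
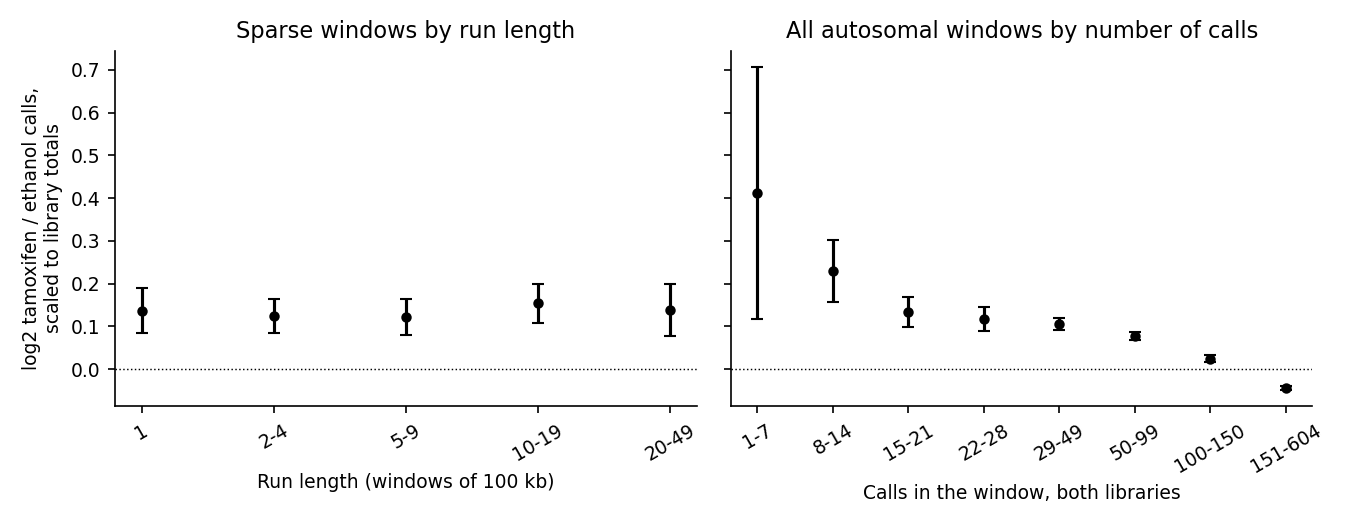
Log2 ratio of tamoxifen over ethanol calls, scaled to the library totals, with exact 95% intervals, on the left in sparse windows by the number of adjoining sparse windows and on the right in all autosomal windows by their number of calls. The 5 run-length classes lie between 0.12 and 0.15, while by number of calls the ratio goes from 0.41 in windows with 1 to 7 calls to -0.04 in those with 151 or more.

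The direction was nearly the same on all autosomes. Before scaling, sparse windows held more tamoxifen than ethanol calls on 19 of 19 autosomes. After scaling, the log2 ratio was above 0 on 18, and its interval lay above 0 on 12 and below 0 on none. The highest value was on chromosome 7, with 1768 ethanol and 2335 tamoxifen calls and a log2 ratio of 0.27 (0.18 to 0.36). That chromosome also held 33 of the 83 windows with 1 to 7 calls and 71 of the 146 windows with no call. The part of these windows in its value was not tested. The exception was chromosome 12, with 62 and 66 calls and a log2 ratio of -0.04 (-0.56 to 0.48). Autosomes of 1 pair of libraries are no replicates. By score, the scaled log2 ratio was 0.11 (0.07 to 0.14) in the lowest of the 5 score classes and 0.16 (0.10 to 0.23) in the highest.

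Single windows scattered widely, as their counts are small. Over 1.5-fold higher with tamoxifen after scaling were 699 of 3701 sparse windows (18.9%), and 260 (7.03%) were over 1.5-fold lower. Over all 24015 autosomal windows with a call these shares were 4.90% and 1.48%, and in intermediate windows 0.264% and 0.0480%. The larger shares in sparse windows go with fewer calls per window and were not separated from counting error. Before scaling, 2435 sparse windows (65.8%) had more tamoxifen calls, 865 (23.4%) more ethanol calls and 401 equal numbers. Tamoxifen calls were more numerous in 75.4% of all autosomal windows with a call and in 80.1% of intermediate windows. Ethanol calls were more numerous in 19.2 and 16.6% of them.

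Long runs ranged around the common value. Of the 81 runs of 10 or more windows, 79 had more tamoxifen than ethanol calls, 71 had a scaled log2 ratio above 0, and the median was 0.14. The interval lay above 0 in 4 of them and below 0 in none. The highest was 17 windows on chromosome 4, from 76400001 to 78100000, with 119 ethanol and 175 tamoxifen calls, a log2 ratio of 0.42 (0.08 to 0.77). It was followed by chromosome 5 from 70200001 to 71700000, with 115 and 168 calls (0.41), and chromosome 17 from 19700001 to 20800000, with 74 and 106 (0.39). The other 2 of the highest 5 lay on chromosome 7, from 8700001 to 10400000 with 46 and 65 calls (0.37), and from 67400001 to 69200000 with 130 and 181 calls (0.35). The former was the emptiest of those named, with 6.53 calls per window and 121395 bp without a call, and it began beside a window with no call in either list.

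Of the 5 lowest runs, 3 lay on chromosome 5. They covered 82100001 to 83300000, with 116 ethanol and 113 tamoxifen calls (scaled log2 ratio -0.17), 84300001 to 85600000, with 130 and 130 (-0.13), and 10700001 to 11900000, with 115 and 120 (-0.07). The others were chromosome 13 from 116000001 to 117000000, with 113 and 115 calls (-0.11), and chromosome 1 from 68000001 to 69200000, with 94 and 100 (-0.04). All 5 intervals included 0. These are the extremes of 81 runs, and the intervals take no account of that choice. With 1 library per group and the number of reads unknown, treatment, depth and preparation of the library cannot be told apart.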

How the data were processed

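Nucleosome positions were measured by MNase-seq in 2 libraries, 1 per group, taken from the sample titles. The submitters' processing notes name Bowtie 0.12.9 and mm9. For each library the authors deposited a list of called nucleosomes, each with a score. How calls were made and filtered, and what a score measures, is not given in the sources used here. Scores ran from 50.1 to 3250, widths from 80 to 240 bp, and calls did not overlap. Starts lie on a grid of 10 bp and were printed unchanged.

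Centres, (start + end)/2, were counted in windows of 100 kb. Between the outermost calls of the autosomes, 146 windows on 8 chromosomes held no call. They were not members, ended a run, and adjoined 13 sparse windows together with chromosome ends. Pairs were counted within windows. Distances were smoothed over 15 or 45 bp, and peak k was sought within 60 bp of k times 190 bp. The 5 score classes were taken over each whole list. Splits of calls have exact Clopper-Pearson intervals, shares Wilson intervals, pair numbers Poisson intervals, and medians intervals from order statistics. The procedures were tested on simulated data. Software was scipy 1.17.1, numpy 2.4.6, pandas 2.3.3 and, for plots, matplotlib 3.10.9, under Python 3.11.15.

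The members, distance limits and measures were chosen with earlier results of these data known. Regions named are the 8 longest runs, the 5 highest and 5 lowest by log2 ratio among runs of 10 or more windows, the 5 highest-scored calls per list and the 3 windows with the most shared calls, with ties in chromosome order. No genome or annotation of mm9 was used here, so genes, repeats, base composition and sequence are not given.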

Additional observations from a re-analysis of the deposited data

How the results depend on the processing

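Most values moved by less than their counting interval, or by less than 1.5 times for counts, under 29 of 49 alternatives. The log2 ratio of sparse windows kept its sign. The difference between runs of 10 or more and single windows went from 0.0116 to -0.0104 with calls at or above the median score. Both intervals included 0. The ratio of contrasts, 1.08 in the main setting, fell below 1 under 2 settings given below, with intervals that included 1. Limiting sparse windows to 1 to 14 calls left 611 windows and a longest run of 12, with a log2 ratio of 0.24, a median ethanol score of 70.9, sharing of 31.4%, a neighbour share of 5.34%, a tamoxifen-over-ethanol ratio of contrasts of 0.779 (interval 0.310 to 1.96) and an ethanol pair ratio at 140 to 1000 bp of 2.01. With calls below the median score left out of both lists, ethanol sharing was 36.8% and the neighbour share 5.16%. The ratio of contrasts was then 0.771 (0.483 to 1.23) and the pair ratio 2.51. Only partners at or above the median counted, so 36.8% is not the share of stronger calls found in the whole tamoxifen list. With windows shifted by 50 kb the longest run was 87 windows and the pair ratio 1.87. Scaling to windows with 100 to 150 calls instead of library totals gave a log2 ratio of 0.11. Ethanol sharing was 25.7% within 10 bp, 44.8% within 40 bp and 40.9% when weighted to the scores of windows with 100 to 150 calls, and the neighbour share up to 300 bp was 6.00%. The difference between runs of 10 or more and single windows was -0.0712 among windows with 15 to 21 calls. This and the weighting were chosen after seeing the data. The log2 ratio of sparse windows was above 0, with its interval, under 6 of 6 alternatives. These reuse calls of the same 2 libraries, and the windows were chosen with this gain known, so the count is description only. Fewer calls or wider limits give fewer or more partners by construction, and the cause of other shifts was not tested beyond these settings. No paired analysis was possible because 1 library stood for either group.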
